A study of Mus musculus with 6 samples.

Results

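The feedback regulators of early stimulation are 10 genes, most of them known for transcripts that rise soon after stimulation or handling. The products of many of them then restrain the response. They were chosen by gene symbol: 5 MAP kinase phosphatases (Dusp1, Dusp2, Dusp4, Dusp5 and Dusp6), 2 Sprouty genes (Spry1 and Spry2), the mRNA decay factor Zfp36, and the immediate early response genes Ier2 and Ier3. All 10 were found, each with 1 probe set naming no other gene, among 35556 probe sets and 19938 genes measured. The RNA was that of RAG2-GFP+ cells of the B lineage, isolated by sorting from small intestinal lamina propria, which is the connective layer beneath the gut epithelium, or from bone marrow. The mice were of the strain RAG2-GFP/129Sve, which carries a green fluorescent reporter of the recombinase gene Rag2, and were 17 to 25 days old. Both tissues gave 3 pools of sorted cells, with 8 to 12 mice per experiment and 1 array per pool, and neither tissue was treated. The sort rested on the reporter, whose protein outlasts Rag2 transcription, so cells that recently stopped recombining can be included.

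Growth factor, cytokine and antigen receptor signals reach the MAP kinases ERK, JNK and p38, which switch on immediate early genes. Dual-specificity phosphatases remove the activating phosphates from these kinases, Sprouty proteins act upstream by limiting signalling from receptors to Ras and ERK, and Zfp36 (tristetraprolin) marks short-lived mRNAs with AU-rich elements for decay. In B cell precursors ERK is activated below the receptor for interleukin-7 and the pre-B cell receptor.

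The 6 arrays were not alike, which bears on each result. Lamina propria pools 1 and 2 correlated across genes at 0.766 to 0.832 with the other arrays, pool 3 at 0.954 to 0.966 with the bone marrow arrays, and the bone marrow arrays at 0.957 to 0.98 among themselves. The interquartile range of log2 values was 2.00 and 1.94 in lamina propria pools 1 and 2 and 2.47 in pool 3, against 2.41 to 2.46 in the bone marrow. Of 13 B lineage markers measured (14 listed), 11 had a negative difference, whereas 67.6% of all genes had a positive one. Of the 13, 4 were lower without overlap (Il7r at -2.46, Rag2 at -2.35, Rag1 at -1.05 and Dntt at -0.51 on the log2 scale), against 7.27% of all genes. Cd22 alone was higher without overlap, by 0.43, against 14.8% of all genes. The median difference of all genes was -0.97 at bone marrow means from 8 to 9, where Rag2 lies. It was -0.43 from 10 to 11 (Il7r), -0.14 from 11 to 12 (Rag1 and Dntt) and 0.30 from 5 to 6 (Cd22). Vpreb1, part of the surrogate light chain, was high at 11.67 to 11.92 in the lamina propria, against 11.79 to 11.85 in the bone marrow, whereas Ms4a1 (CD20), a marker of later B cells, was dim at 4.42 to 5.11 in the lamina propria, against 4.21 to 5.41 in the bone marrow. The summed linear signal of the 13 was 12053 to 12341 in the lamina propria, against 14046 to 17795 in the bone marrow. In sorted bulk samples, a lower transcript level and fewer cells holding the transcript cannot be told apart. The part of the narrower range of lamina propria pools 1 and 2 in these differences was not tested.

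Each of the 10 regulators had a higher mean in the lamina propria than in the bone marrow, by 0.41 to 1.55 on the log2 scale, with the largest differences for Zfp36 and Dusp1. None passed limma's threshold of an adjusted p of 0.05 over all genes, and neither did any of the 19938 genes (percent of genes called higher: 0%). At an unadjusted p under 0.05 limma gave 5 of the 10, Dusp1, Dusp4, Dusp5, Zfp36 and Ier2, against 13.7% of all genes (5.53% higher and 8.15% lower). A positive difference as such was common, at 67.6% of all genes. For 3 regulators, Dusp4, Dusp5 and Spry1, every lamina propria pool lay above every bone marrow pool, against 14.8% of all genes (7.27% lay lower without overlap). Without lamina propria pool 3, limma called Dusp5 (adjusted p = 0.0486) and Spry1 (adjusted p = 0.0434), 2 of the 10, in a fit that called 24.1% of all genes higher. The median difference was 0.65 over the 10 and 0.22 over all genes.

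**Figure D1:**
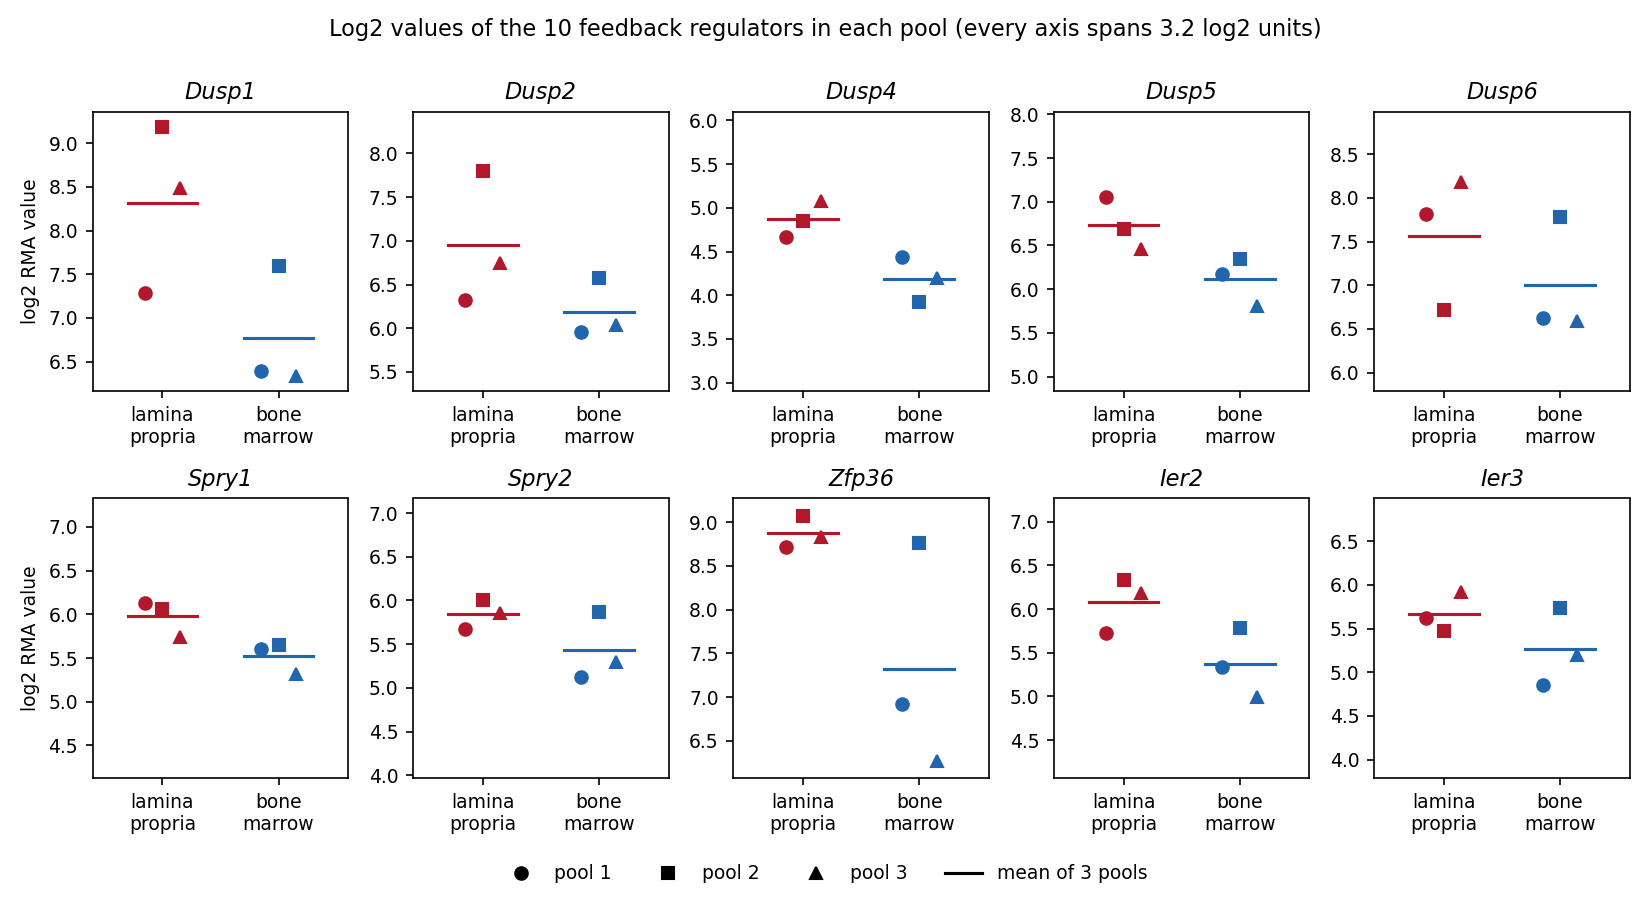
Log2 RMA values of the 10 genes in lamina propria pools (red) and bone marrow pools (blue). Symbols mark the pool number, horizontal lines the mean of 3 pools, and each panel spans the same number of log2 units. Bone marrow pool 2 (blue square) lies above the other bone marrow pools in every panel except that of Dusp4.

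Of the phosphatases that work in the nucleus, Dusp1, which acts on all 3 MAP kinase groups, had the largest difference. Its log2 values were 7.28, 9.18 and 8.48 in lamina propria pools 1, 2 and 3, against 6.39, 7.59 and 6.34 in bone marrow pools 1, 2 and 3. The groups overlapped through 1 pair of arrays: bone marrow pool 2 lay above lamina propria pool 1. The difference was 1.54 (95% interval 0.28 to 2.80, limma adjusted p = 0.356), or 2.91-fold, and against bone marrow pools 1 and 3 alone it was 1.95. Dusp2, a phosphatase first described in activated lymphocytes, was 6.32, 7.80 and 6.74 in the lamina propria pools, against 5.96, 6.58 and 6.03 in the bone marrow pools. Its pattern was that of Dusp1, with pool 2 highest in both tissues and lamina propria pool 1 below bone marrow pool 2. The difference of Dusp2 was 0.77 (95% interval -0.17 to 1.70, limma adjusted p = 0.359).

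For the other nuclear phosphatases the tissues did not overlap. Dusp5, which is specific for ERK, was 7.05, 6.68 and 6.46 in the lamina propria pools, against 6.17, 6.35 and 5.81 in the bone marrow pools, a difference of 0.62 (95% interval 0.04 to 1.20, limma adjusted p = 0.356). The lowest lamina propria pool was thus pool 3, and it lay above bone marrow pool 2, the highest of its tissue. Dusp4, a further nuclear phosphatase, was 4.67, 4.85 and 5.08 in the lamina propria pools, against 4.44, 3.92 and 4.19 in the bone marrow pools, a difference of 0.68 (95% interval 0.15 to 1.22, limma adjusted p = 0.356). Dusp4 was the sole regulator for which bone marrow pool 2 was the lowest of its tissue. All its values lay below the median gene of their arrays (5.39 to 5.62), so this difference is one between dim signals.

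Dusp6, the cytoplasmic phosphatase of ERK, varied most between the pools relative to its difference. Its values were 7.81, 6.71 and 8.18 in the lamina propria pools, against 6.62, 7.78 and 6.59 in the bone marrow pools. Lamina propria pools 1 and 3 and bone marrow pool 2 formed a high group, and lamina propria pool 2 lay with bone marrow pools 1 and 3. The difference was 0.57 (95% interval -0.53 to 1.67, limma adjusted p = 0.449), smaller than the SD of either tissue (0.76 in lamina propria, 0.68 in marrow, n = 3 each).

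The Sprouty genes had small differences. Spry1 was 6.13, 6.07 and 5.74 in the lamina propria pools, against 5.60, 5.64 and 5.32 in the bone marrow pools, with no overlap and a difference of 0.46 (95% interval -0.04 to 0.96, limma adjusted p = 0.356). Spry2 was 5.67, 6.01 and 5.86 in the lamina propria pools, against 5.12, 5.87 and 5.30 in the bone marrow pools, a difference of 0.42 (95% interval -0.18 to 1.01, limma adjusted p = 0.376). For Spry2, bone marrow pool 2 lay above lamina propria pools 1 and 3 and below lamina propria pool 2.

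Zfp36 combined close lamina propria values with the widest bone marrow values of the set. It was 8.72, 9.07 and 8.83 in the lamina propria pools, against 6.92, 8.76 and 6.27 in the bone marrow pools. The SD was 0.18 among the lamina propria pools and 1.29 among those of bone marrow (n = 3 each). Bone marrow pool 2 reached the lamina propria level, just above lamina propria pool 1, and stood 2.17 above the mean of the other bone marrow pools. The difference was 1.55 (95% interval 0.19 to 2.92, limma adjusted p = 0.356), or 2.93-fold, and 2.27 against bone marrow pools 1 and 3.

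Ier2, a nuclear protein of the immediate early response, was 5.72, 6.34 and 6.19 in the lamina propria pools, against 5.34, 5.79 and 4.99 in the bone marrow pools. Overlap was again limited to lamina propria pool 1 and bone marrow pool 2, and the difference was 0.71 (95% interval 0.05 to 1.37, limma adjusted p = 0.356). Ier3, a stress-inducible gene that affects cell survival, was 5.62, 5.47 and 5.92 in the lamina propria pools, against 4.86, 5.73 and 5.20 in the bone marrow pools. Bone marrow pool 2 exceeded lamina propria pools 1 and 2, and the difference was 0.41 (95% interval -0.24 to 1.06, limma adjusted p = 0.400).

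**Figure D2:**
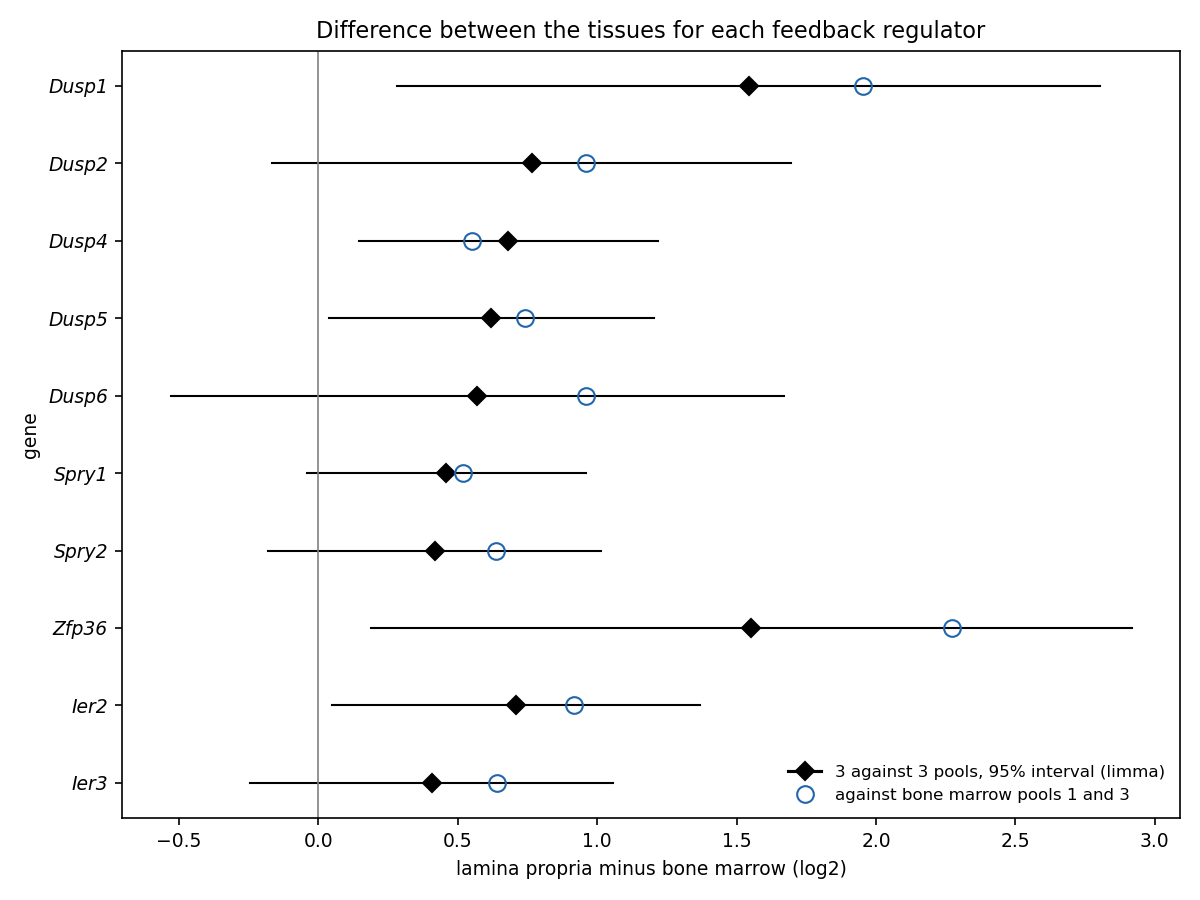
Difference between lamina propria and bone marrow (log2, lamina propria minus bone marrow) for each gene. Diamonds and lines give the difference of 3 against 3 pools with limma's 95% interval, and open circles the difference against the mean of bone marrow pools 1 and 3. Intervals of Dusp1, Dusp4, Dusp5, Zfp36 and Ier2 lie above 0, and the circle lies to the right of the diamond for every gene except Dusp4.

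All overlap between the tissues involved bone marrow pool 2. That pool was the highest bone marrow pool for 9 of the 10 regulators, against 31.2% of all genes, and its median excess over the mean of pools 1 and 3 was 0.64 for the regulators and -0.003 for all genes. The excess was at least 1 for Dusp1, Dusp6 and Zfp36, 3 of the 10, against 0.993% of all genes. A pair of granulocyte markers, S100a8 and S100a9, was also high in that pool. The summed linear signal of the 10 granulocyte markers was 295 to 428 in the lamina propria, against 1137 in bone marrow pool 2 and 428 and 344 in bone marrow pools 1 and 3, with 6 of the 10 highest in pool 2 among the bone marrow pools. Without S100a8 and S100a9 the other 8 summed to 239 to 355 in the lamina propria, against 345 in bone marrow pool 2 and 295 and 225 in bone marrow pools 1 and 3. S100a9, an abundant neutrophil protein, was 5.57, 5.63 and 5.30 in the lamina propria pools, against 6.56, 9.26 and 6.68 in the bone marrow pools. Whether granulocyte RNA contributes to the values of the regulators in that pool was not tested.

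The regulators also stood above the bone marrow in lamina propria pool 3, the array most like the bone marrow arrays. In pool 3, 9 of the 10 lay above all 3 bone marrow pools, against 24.8% of all genes, and the exception was Spry2. The counts were 8 of 10 in pool 2 (58.4% of all genes) and 4 of 10 in pool 1 (59.7% of all genes). Relative to the bone marrow mean, the median over the regulators was 0.50, 0.62 and 0.74 in pools 1, 2 and 3, and over all genes 0.31, 0.31 and -0.009.

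In lamina propria pools 1 and 2 the typical difference varied with the level of a gene. Genes with a bone marrow mean from 5 to 6 had median differences of 0.44 and 0.40 in pools 1 and 2 and of -0.02 in pool 3. Spry1, Spry2, Ier2 and Ier3 lie in that range, and their differences in pools 1 and 2 were 0.20 to 0.96, with Spry2, Ier2 and Ier3 in pool 1 and Ier3 in pool 2 below the median of the range. In pool 3 they were 0.22 to 0.81. Genes from 4 to 5, where Dusp4 lies, had medians of 0.52 and 0.54 in pools 1 and 2 and 0.006 in pool 3, and Dusp4 stood at 0.49, 0.66 and 0.90. Genes from 6 to 7 had medians of -0.09 and -0.13 in pools 1 and 2 and -0.03 in pool 3. In that range Dusp1 stood at 0.51, 2.41 and 1.71, Dusp2 at 0.13, 1.61 and 0.55, Dusp5 at 0.94, 0.57 and 0.35, and Dusp6 at 0.81, -0.29 and 1.18 in pools 1, 2 and 3. Genes from 7 to 8 had medians of -1.02 and -1.07 in pools 1 and 2 and -0.05 in pool 3, while Zfp36 stood at 1.39, 1.75 and 1.51. The shift with level in pools 1 and 2 thus ran against the difference of Zfp36 and along with that of the dim genes, and its part in the single differences was not tested.

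**Figure D3:**
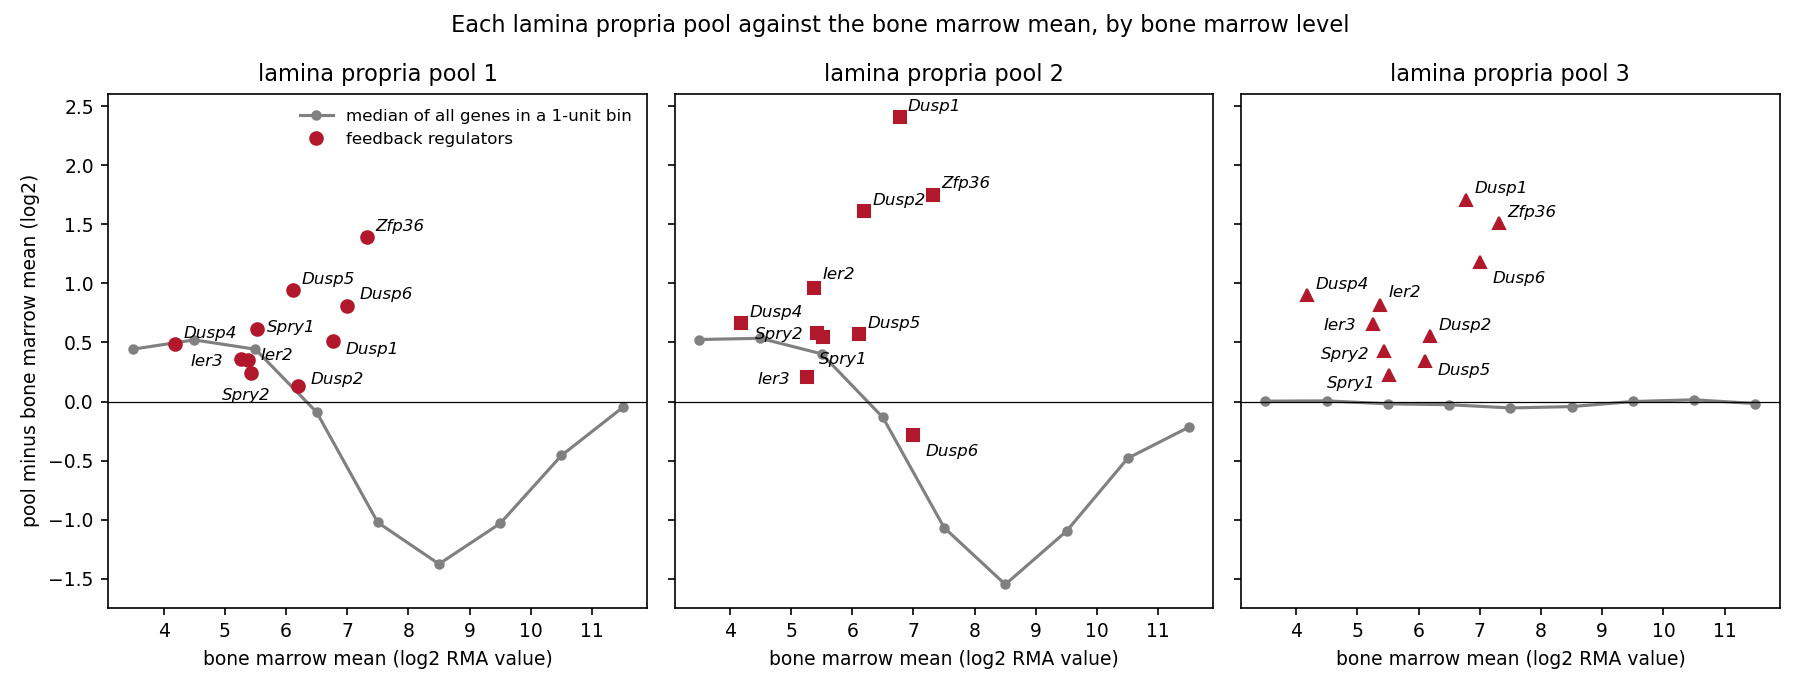
Each panel shows 1 lamina propria pool. The horizontal axis is a gene's bone marrow mean (log2 RMA value), the vertical axis the pool's value minus that mean (log2), red symbols are the 10 regulators and the grey line joins the medians of all genes in bins of 1 unit. In pools 1 and 2 the grey line lies above 0 for dim genes and below 0 for those above 6, whereas in pool 3 it stays near 0 and all red symbols lie above it.

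For genes that mark cells a sort could carry over, positive differences numbered 11 of 12 for T cells, 16 of 16 for intestinal epithelium, 6 of 10 for macrophages, monocytes and dendritic cells, and 10 of 11 for stroma and endothelium, against 67.6% of all genes. Most T cell and epithelium markers had bone marrow means under 6. All genes with means from 3 to 4, 4 to 5 and 5 to 6 had median differences of 0.33, 0.36 and 0.30. The part of this shift in the marker lists was not tested. The summed linear signal of 12 T cell markers was 608 to 707 in the lamina propria, against 519 to 553 in the bone marrow. That of 16 intestinal epithelium markers was 834 to 1045 in the lamina propria, against 634 to 696 in the bone marrow. The sums of 10 macrophage, monocyte and dendritic cell markers (476 to 742 in lamina propria, 496 to 687 in marrow) and of 11 stroma and endothelium markers (695 to 864 in lamina propria, 713 to 799 in marrow) overlapped. Median differences of these lists were 0.35 for T cell, 0.44 for epithelium, 0.28 for macrophage and 0.44 for stroma markers, and in pool 3 alone 0.23, 0.23, 0.09 and -0.007. None of their members was called over all genes by limma, and 6 of 12, 6 of 16, 2 of 10 and 2 of 11 lay higher without overlap, against 14.8% of all genes. Their part in the values of the regulators was not tested.

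Other genes of the same families, listed together with Errfi1, had a smaller median difference. Of 20 measured, 15 had a positive difference (67.6% of all genes), 5 were higher without overlap (14.8% of all genes) and none lower, and limma called none (median 0.34, against 0.22 over all genes). Ier5, a relative of Ier2, was 7.35, 7.50 and 7.27 in the lamina propria pools, against 5.86, 6.68 and 6.15 in the bone marrow pools, a difference of 1.14 (limma adjusted p = 0.281). Errfi1, which inhibits EGF receptor family kinases and belongs to none of these families, differed by 0.72 with no overlap. Zfp36l1, a decay factor of the Zfp36 family with a role in early B cell development, was 8.14, 8.83 and 8.84 in the lamina propria pools, against 7.51, 8.23 and 7.14 in the bone marrow pools. Its difference was 0.97 (95% interval 0.17 to 1.78, limma adjusted p = 0.356). Bone marrow pool 2 again lay above lamina propria pool 1. Spred2, a Sprouty-related inhibitor of ERK activation, differed by 0.70 with overlap. In lamina propria pool 3 alone the median of these 20 genes was -0.011, against 0.74 for the 10 regulators.

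Genes of the kinases themselves had mixed differences. Of 26 genes of the MAP kinase cascade, 19 were measured, 7 with a positive and 12 with a negative difference (median -0.42). Over all genes, 67.6% had a positive difference. Limma called none of the 19. The adaptor Grb2 differed by 0.98 without overlap. The ERK-activated kinase gene Rps6ka3 differed by -2.42 and the JNK gene Mapk9 by -1.99, both without overlap, and both lie at bone marrow levels where pools 1 and 2 were low for most genes. Nras, a Ras protein, differed by -0.51 without overlap, and Mapkapk2, a p38-activated kinase that phosphorylates Zfp36, by -0.42 with overlap. Nras and Mapkapk2 had bone marrow means from 8 to 9, where the median difference of all genes was -0.97. In pool 3 alone the median of the cascade was -0.04.

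Genes of mRNA decay had mostly negative differences, and known targets of Zfp36 positive ones, and the 2 lists differ in level. Of 21 genes of AU-rich element binding and mRNA decay, 18 had a negative difference, whereas 67.6% of all genes had a positive one. Among the 21, 7 were lower without overlap, against 7.27% of all genes, and the median was -0.86. Most had bone marrow means from 7 to 10, where medians of all genes were -0.69 (7 to 8), -0.97 (8 to 9) and -0.77 (9 to 10). Rc3h2, which encodes a Roquin protein that represses mRNAs, differed by -2.87. Tial1, an RNA-binding protein of stress granules, differed by -1.99. The median of this list was -0.84, -1.63 and 0.04 in pools 1, 2 and 3. Hnrnpd, an AU-rich element binding protein, and Cnot1, the scaffold of the deadenylase complex that Zfp36 recruits, differed by 0.17 and 0.24. All 14 transcripts listed as bound by Zfp36 had a positive difference, against 67.6% of all genes (median 0.53), and 4 were higher without overlap, against 14.8% of all genes, among them the chemokine gene Cxcl2 at 0.83 and the cytokine gene Il3 at 0.77, both below the median gene of their arrays in most pools. Most of the 14 had bone marrow means under 6. The median differences of all genes with means from 3 to 4, 4 to 5 and 5 to 6 were 0.33, 0.36 and 0.30. Among these transcripts Il2, Il3, Il6, Il10 and Csf2 had bone marrow means of 2.53 to 3.78, with Il3 and Il6 below 3. The part of level in either list was not tested. Nfkbia, the inhibitor of NF-kB, was 6.97, 7.24 and 8.95 in the lamina propria pools, against 6.34, 7.42 and 7.67 in the bone marrow pools, and differed by 0.58 with overlap. Pim1, a serine and threonine kinase, differed by 0.46. Limma called none of either list.

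**Figure D4:**
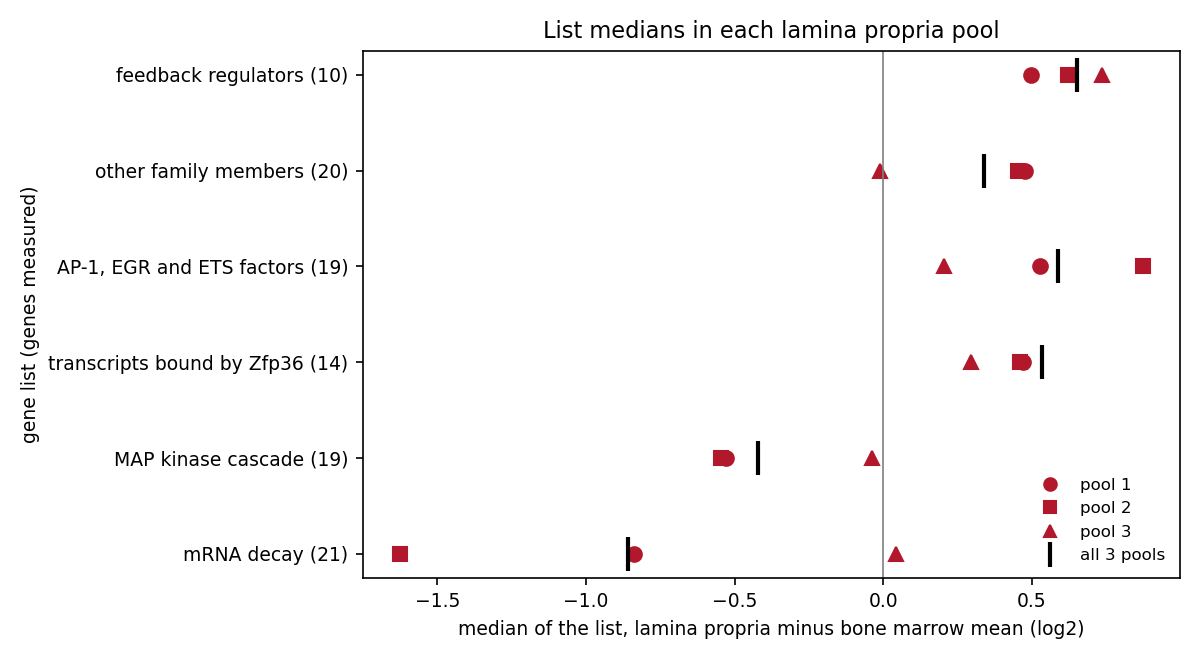
Median of each gene list in each lamina propria pool minus the bone marrow mean (log2, symbols), and the median difference over all 3 pools (black bar), with the number of genes measured in brackets. The feedback regulators lie between 0.50 and 0.74 in all pools, whereas the lists of the MAP kinase cascade and mRNA decay lie below 0 in pools 1 and 2 and near 0 in pool 3.

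AP-1, EGR and ETS factors read ERK activity at promoters, and their list also held Srf and Myc. The list median was 0.59, against 0.22 over all genes. Of 19 measured, 16 had a positive difference (67.6% of all genes) and 7 were higher without overlap (14.8% of all genes), with bone marrow pool 2 the highest of its tissue for 14 (31.2% of all genes). Jun was 10.21, 10.27 and 10.30 in the lamina propria pools, against 8.89, 9.96 and 8.53 in the bone marrow pools, with a difference of 1.13. Fos, its partner in AP-1, was 6.18, 7.23 and 6.08 in the lamina propria pools, against 4.89, 6.57 and 5.002 in the bone marrow pools. Differences were 3.28 for the stress-induced factor Atf3 and 1.20 for Junb, both without overlap, and -1.77 for Elk4, an ETS partner of serum response factor, with overlap. Most genes of the list had bone marrow means under 6. All genes with means from 4 to 5 and 5 to 6 had median differences of 0.36 and 0.30, and those from 9 to 10, where Elk4 lies, -0.77. The part of level in this list was not tested. Its median was 0.53, 0.87 and 0.20 in lamina propria pools 1, 2 and 3, against 0.50, 0.62 and 0.74 for the regulators.

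As a description of likeness, the mean deviation of the 10 regulators from their own means over the arrays was 0.20, 0.52 and 0.45 in the lamina propria pools, against -0.56, 0.10 and -0.70 in the bone marrow pools. Among 5908 other genes of at least median level and a range of at least 1, the 5 closest by Pearson's r over the 6 arrays were Egr1 (0.984), Jun (0.980), Zfp36l1 (0.979), Snrpb (0.977) and Tulp3 (0.973). Egr1, a zinc finger factor induced through ERK, was 6.81, 7.05 and 6.75 in the lamina propria pools, against 5.46, 6.45 and 5.18 in the bone marrow pools. All points share the same 6 arrays, among them those that stand apart (lamina propria pools 1 and 2 and bone marrow pool 2). Against the mean of the other 9 regulators, each regulator's r over the 6 arrays was 0.505 for Dusp6, 0.545 for Dusp4 and between 0.725 and 0.961 for the rest, with Ier2 and Zfp36 highest.

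Promoter sequences were available for 8 of the 10 genes, and not for Dusp4 and Ier2. The 250 bases before the gene start were searched on both strands, in RefSeq sequence of GRCm38.p6, for elements through which immediate early genes are known to be induced. The windows of the regulators that held a match are shown. Capitals mark matches. Dusp1 lies on the minus strand (chr17:26508473-26508722), as does Zfp36 (chr7:28379229-28379478), whereas Dusp2 (chr2:127335909-127336158), Dusp5 (chr19:53528895-53529144) and Ier3 (chr17:35821463-35821712) lie on the plus strand.
Dusp1: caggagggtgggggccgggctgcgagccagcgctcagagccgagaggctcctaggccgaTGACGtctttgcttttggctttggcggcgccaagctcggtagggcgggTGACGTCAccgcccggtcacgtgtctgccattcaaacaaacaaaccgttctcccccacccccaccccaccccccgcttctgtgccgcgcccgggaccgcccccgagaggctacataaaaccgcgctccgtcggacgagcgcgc
Zfp36: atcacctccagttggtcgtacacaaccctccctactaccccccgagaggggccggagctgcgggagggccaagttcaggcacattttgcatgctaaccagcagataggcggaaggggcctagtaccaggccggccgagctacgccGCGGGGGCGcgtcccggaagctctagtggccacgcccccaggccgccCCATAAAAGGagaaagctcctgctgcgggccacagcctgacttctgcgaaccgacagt
Dusp2: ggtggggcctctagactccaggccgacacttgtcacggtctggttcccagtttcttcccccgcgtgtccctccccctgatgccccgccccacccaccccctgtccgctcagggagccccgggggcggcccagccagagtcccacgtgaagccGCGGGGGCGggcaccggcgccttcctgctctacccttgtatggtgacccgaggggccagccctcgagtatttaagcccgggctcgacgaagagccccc
Dusp5: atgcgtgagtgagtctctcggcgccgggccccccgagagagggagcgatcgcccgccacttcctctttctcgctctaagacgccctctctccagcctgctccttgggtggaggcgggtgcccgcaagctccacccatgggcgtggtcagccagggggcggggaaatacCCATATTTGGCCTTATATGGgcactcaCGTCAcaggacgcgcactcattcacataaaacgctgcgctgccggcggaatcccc
Ier3: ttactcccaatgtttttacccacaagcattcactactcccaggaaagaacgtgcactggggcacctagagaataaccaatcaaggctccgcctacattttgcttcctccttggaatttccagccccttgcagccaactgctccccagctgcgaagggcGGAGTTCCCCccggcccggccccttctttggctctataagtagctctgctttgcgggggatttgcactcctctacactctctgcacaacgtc

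The Dusp1 window held a full cyclic AMP response element, TGACGTCA, at bases 143 to 136 before the start, present in 1.55% of 32851 windows of that length, and a further copy of its core, TGACG, at bases 191 to 187. That core, which is part of the full element, was found in 17.8% of windows, including that of Dusp5. CArG boxes, the binding sequence of serum response factor, stood at bases 58 to 49 in Zfp36 and, as an adjoining pair, at bases 82 to 73 and 72 to 63 in Dusp5, and 1.47% of windows held such a box. The EGR element GCGNGGGCG occurred at bases 98 to 90 in Dusp2 and 105 to 97 in Zfp36, and in 4.70% of windows. A kappa B site stood at bases 92 to 83 in Ier3 and in 7.25% of windows. No window of the 8 held the AP-1 element TGACTCA (4.46% of windows) or the ETS element CCGGAAGT (2.88% of windows), which says only that these letters are not within these 250 bases. These matches are letters in the reference and were not measured as bound. Zfp36 and Dusp1, the genes with the largest differences, thus carry different elements in these windows, and Dusp6, Spry1 and Spry2 carry none of those searched.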

How the data were processed

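Expression was measured on 6 whole-transcript arrays, 3 per tissue. Between 4.5 and 47 ng of Trizol-extracted RNA was amplified and biotin-labelled, per the labels' protocols. Per the submitters' processing notes, the deposited log2 values were made by RMA with Affymetrix Expression Console (version 1.3.0.187), and no further settings are stated there. RMA in general corrects background, equalises arrays and summarises probes, so each value depends on the other values of its array and of the set. The number of arrays limits the precision.

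Values were used as deposited. The platform's gene table gave 1 symbol for 21789 of 35556 probe sets, and a gene with several was represented by that with the highest mean, leaving 19938 genes. Of the probe sets with 1 symbol, 21698 had an entry in the GRCm38.p6 RefSeq table by Entrez identifier. Tissues were compared with limma 3.58.1 in R 4.3.3 (lmFit and eBayes, two-sided, no trend, no block), and p-values were adjusted over all genes by Benjamini-Hochberg, with calls made under 0.05. Each difference is the lamina propria mean minus the bone marrow mean.

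The regulators and gene lists were chosen with earlier results of these data known, so no test over a list was made. All 10 regulators are named. From each further list the 2 genes with the highest mean and up to 2 per direction with the largest difference without overlap are named. Fos, Egr1, Srf and Myc are named in addition. Single cell type markers were chosen for naming with their values known. The p-values measure the spread between pools. Promoters came from RefSeq, GRCm38.p6. Alternatives tried were a block on pool number, leaving out dim genes, 2 further scalings, other variance models, array weights, the mean of probe sets and leaving out arrays. Figures were drawn with matplotlib 3.10.9.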

Additional observations from a re-analysis of the deposited data

How the results depend on the processing

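All 145 differences of single regulators over the 15 alternatives, which share arrays, were positive. Limma called no gene at all in 11 of the 15, so calls of regulators could be compared only in the other 4. Among those, regulators were called without lamina propria pool 3: Dusp5 (0.76, adjusted p = 0.0486) and Spry1 (0.58, adjusted p = 0.0434), along with 4806 genes higher (24.1%) and 2416 lower. Genes called higher and lower were 3368 and 2218 with array weights and 1 and 39 with an intensity trend and robust variances, none of them a regulator.

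Leaving out 1 array moved several differences by more than 1.5 times. Dusp2 was 0.34 without lamina propria pool 2. Dusp6 was 1.00 without lamina propria pool 2, 0.26 without lamina propria pool 3, 0.96 without bone marrow pool 2 and 0.37 without bone marrow pool 3. Without bone marrow pool 1 Spry2 was 0.26 and Ier3 0.20, without bone marrow pool 2 they were 0.64 each, and Zfp36 was 1.03 without bone marrow pool 3. Over these fits 0 to 2 regulators, 0 to 4806 genes higher and 0 to 2416 lower were called, and medians ran from 0.50 to 0.83 for the regulators, 0.20 to 0.50 for other family members, -0.72 to -0.24 for the MAP kinase cascade, 0.38 to 0.67 for AP-1, EGR and ETS factors, -1.40 to -0.40 for mRNA decay and 0.43 to 0.59 for transcripts bound by Zfp36. The cascade, mRNA decay and AP-1 lists were nearest 0 without lamina propria pool 2, and other family members without pool 1.

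The number of regulators higher without overlap ran from 3 to 10 over the same fits. It was 7 without lamina propria pool 1 (16.6% of all genes), 3 without lamina propria pool 3 (51.2% of all genes) and 10 without bone marrow pool 2 (19.9% of all genes), where the count follows from that pool being in every overlap. Quantile normalization gave 6 (15.9% of all genes) and a median of 0.78, and the filter on dim genes, which left 5 regulators, gave 1 (6.11% of the genes kept). The cause of these changes was not tested.

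Without lamina propria pools 1 and 2, 9 regulators did not overlap, against 24.8% of all genes, and list medians were -0.0105 for other family members, -0.0394 for the cascade, 0.20 for AP-1, EGR and ETS factors, 0.0441 for mRNA decay and 0.29 for transcripts bound by Zfp36. Leaving out bone marrow pool 2 as well, chosen after seeing the data, gave 10 regulators without overlap, against 31.2% of all genes, a median of 0.83, and -0.0359 and 0.0355 for other family members and the cascade. Both fits assume that the lone array varies like the bone marrow arrays.

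With the pool number as a replicate block limma called 2 genes higher and 14 lower and 0 regulators. The limma adjusted p of the regulators then ran from 0.077 (Dusp1) to 0.486 (Dusp6), against 0.356 and 0.449 for these genes without the block. Pools of the same number are not known to be paired. Their deviations correlated at 0.131, 0.051 and 0.226. Lamina propria pools 1 and 3 correlated best with the bone marrow pool of the same number, and lamina propria pool 2 with bone marrow pool 1 (0.133).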
